A study of Mus musculus with 8 samples.

Results

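The genes described here are 10 transcription factors that direct the B-cell lineage: Pax5, Ebf1, Tcf3, Ikzf1, Ikzf3, Irf4, Irf8, Bach2, Foxo1 and Spib. They were chosen by name and matched to Ensembl gene IDs through GENCODE M21, which gave 10 rows of the 21859 in the count table. Of these, 9 passed the filter on low counts, as did 10729 genes in all, and Irf8 had 0 counts in every sample. The 8 samples were of PER-M60, a mouse cell line labelled as leukaemia cells. Control medium was used for 4 samples. The other 4 were of cells in medium that osteoclasts, the bone-resorbing cells, had conditioned. All samples come from the same line, so every comparison is between media within 1 leukaemia and not between lines or animals. The make-up of either medium, the time of exposure and the driver mutation of the line are not given in the sources used here.

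B-cell identity is built in steps by a small network of factors. The E protein E2A, encoded by Tcf3, and EBF1 open the programme in early progenitors, and PAX5 then fixes commitment by switching B-lineage genes on and genes of other lineages off. FOXO1 works beside them early, where it supports the interleukin-7 receptor and the recombinase genes, and it is held out of the nucleus by PI3K and AKT signalling. IKAROS (Ikzf1), AIOLOS (Ikzf3), IRF4 and IRF8 move large cycling pre-B cells towards small resting ones, while BACH2 restrains the plasma cell programme and SPI-B is an ETS factor related to PU.1. In B-cell acute leukaemia this network is a frequent site of mutation, above all in IKZF1 and PAX5.

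The factors whose counts separated the media most clearly were Foxo1, Irf4, Bach2 and Pax5. The 250 bases upstream of their starts are shown because these 4 genes moved in the same direction, and a reader may want the promoters side by side. The sequences are from RefSeq on GRCm38.p6, written 5′ to 3′ on the gene's strand, and 9 of the 10 factors had an entry (Ikzf3 had none). Capitals mark a match to 1 of 5 motifs searched on both strands.
Foxo1 (chr3:52268087-52268336, + strand): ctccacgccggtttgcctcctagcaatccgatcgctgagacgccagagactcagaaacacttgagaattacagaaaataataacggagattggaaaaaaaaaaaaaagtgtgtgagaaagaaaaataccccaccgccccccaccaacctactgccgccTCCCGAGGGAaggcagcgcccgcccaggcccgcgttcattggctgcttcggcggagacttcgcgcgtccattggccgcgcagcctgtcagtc
Irf4 (chr13:30748983-30749232, + strand): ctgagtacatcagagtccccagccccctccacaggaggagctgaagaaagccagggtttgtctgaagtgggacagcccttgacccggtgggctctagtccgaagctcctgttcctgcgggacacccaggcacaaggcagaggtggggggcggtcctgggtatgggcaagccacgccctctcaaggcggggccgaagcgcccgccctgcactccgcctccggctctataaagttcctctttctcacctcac
Bach2 (chr4:32417185-32417434, + strand): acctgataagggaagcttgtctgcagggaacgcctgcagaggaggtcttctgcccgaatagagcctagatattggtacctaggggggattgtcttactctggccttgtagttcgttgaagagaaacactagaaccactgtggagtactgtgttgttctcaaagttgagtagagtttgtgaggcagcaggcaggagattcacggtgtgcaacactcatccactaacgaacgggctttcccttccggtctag
Pax5 (chr4:44710695-44710944, - strand): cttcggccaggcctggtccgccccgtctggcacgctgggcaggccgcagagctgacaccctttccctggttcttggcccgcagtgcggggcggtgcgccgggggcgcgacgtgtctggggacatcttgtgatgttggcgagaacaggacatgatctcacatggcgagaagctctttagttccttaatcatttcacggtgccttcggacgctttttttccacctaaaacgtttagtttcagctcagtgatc

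The motifs were GTAAACA (FOXO), CAGGTG (an E box), TCCC and GGGA with any 2 bases between (EBF1), GAGGAAGT (PU.1 and SPI-B) and TGGGAA (Ikaros), of which the last and the EBF1 motif share the run GGGA. Among the 4 windows shown, the only match was TCCCGAGGGA in the Foxo1 window, which fits the EBF1 letters and starts 92 bases before the gene's start. These letters occurred in 0.779% of the 32851 promoter windows of the same length. The 12 windows of the 9 factors held 3 other matches. The second Ebf1 start had an Ikaros match, and the second Irf8 start had an Ikaros match and an E box. Ikaros letters occurred in 21.6% of all windows and the E box in 17.2%, against 3.17% for the FOXO letters and 2.44% for the PU.1 and SPI-B letters. A match describes the letters of the window and was not tested as a binding site. The Bach2 window lies inside the span of Bach2 in GENCODE, so its start is not the outermost one annotated, and the Pax5 window lies wholly upstream of the GENCODE span of Pax5.

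Levels are given as normalised CPM, the counts per 1000000 of a library scaled between samples by TMM. Library totals ran from 15391754 to 21637966 counts, so 3 counts, taken as the detection floor, stood for 0.138 to 0.194 CPM. The labels name no batch. Across all genes tested with edgeR's quasi-likelihood test, 3273 (30.5%) passed a Benjamini-Hochberg adjusted p of 0.05, with a median log2 fold change of -0.01 over all 10729. The p-values measure the spread between cultures of this line. In bulk RNA, fewer cells expressing a gene and less RNA of it per cell cannot be told apart.

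Foxo1, Irf4, Bach2, Pax5 and Ikzf1 were higher in osteoclast-conditioned medium and no factor was lower, by edgeR with adjusted p under 0.05. That is 5 of 9 tested, where 15.7% of all genes were called higher, 14.8% lower and 30.5% either way. In 4 of the 9, all higher, the samples of the 2 media did not overlap, beside 15.2% of all genes that were higher without overlap, 12.9% that were lower and 28.2% in either direction. The median log2 fold change of the 9 was 0.07, and all 9 estimates were above 0. With total counts as the only scaling, Ebf1 turned to the negative side of 0.00 and the median was 0.05. Apart from Foxo1, the changes were small. Tested against a change of 1.2-fold, Foxo1 alone passed with edgeR, beside 1.5% of all genes called higher, 0.615% called lower and 2.12% either way. Together the 9 took 3611 to 3735 CPM in the control samples and 3891 to 3934 CPM in the osteoclast-conditioned samples.

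**Figure D1:**
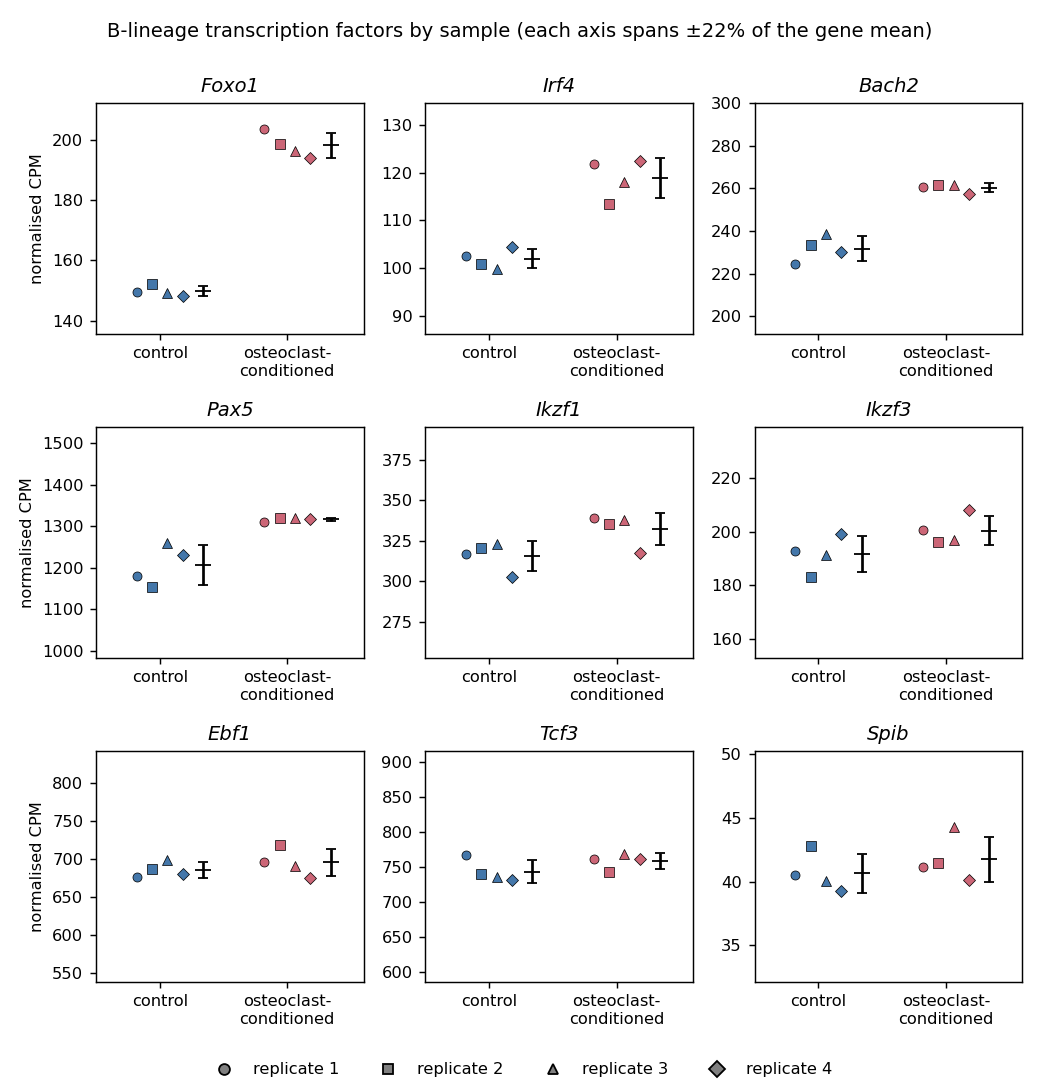
Normalised CPM of the 9 factors with counts, 1 panel per gene, with each sample as a point (marker shape gives the replicate number) and the mean ± SD of 4 samples as a bar beside it. The media separate completely for Foxo1, Irf4, Bach2 and Pax5, and overlap for Ikzf1, Ikzf3, Ebf1, Tcf3 and Spib.

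Foxo1 (ENSMUSG00000044167, chromosome 3, 52268336 to 52353221, + strand, GRCm38) showed the largest change. Control replicates 1 to 4 had 149.6, 152.2, 149.0 and 148.2 CPM, and the osteoclast-conditioned replicates had 203.6, 198.4, 196.3 and 193.9 CPM. Every osteoclast-conditioned sample lay above every control sample by a wide margin. The means were 149.8 ± 1.74 and 198.1 ± 4.12 CPM (± is the SD over n = 4 samples here and throughout). The log2 fold change was 0.40 (SE 0.028, 95% interval 0.35 to 0.46), a 1.32-fold rise, with an edgeR adjusted p of 3.26e-12. Its call held under each of the 19 alternatives tried.

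The forkhead relatives of Foxo1 moved in different directions. Foxo3, which shares most known targets with Foxo1, rose by 0.18 on the log2 scale (SE 0.035, edgeR adjusted p = 0.000196), from 81.1 ± 2.98 to 91.9 ± 1.58 CPM. Foxo4 fell by 0.17 (SE 0.051, edgeR adjusted p = 0.0119), from 32.6 ± 0.803 to 29.1 ± 1.68 CPM, and its call was lost without osteoclast-conditioned replicate 1 (adjusted p = 0.0728). Foxo6 was near 1 CPM, with a log2 fold change of 0.45 that missed the threshold (edgeR adjusted p = 0.108).

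Known FOXO targets did not move one way. Of 12 listed, 9 were tested, and 3 were higher and 2 lower, with a median log2 fold change of 0.05. Beside this and the list counts that follow, 15.7% of all tested genes were called higher and 14.8% lower. Sesn3, a sestrin that restrains mTORC1, rose by 0.37 (edgeR adjusted p = 3.29e-06), from 34.6 ± 2.38 to 44.6 ± 2.79 CPM. Irs2, an adaptor of insulin signalling, rose by 0.33 (edgeR adjusted p = 0.000439), and Pik3ip1, an inhibitor of PI3K, by 0.26 (edgeR adjusted p = 0.00685). Sesn1, another sestrin, fell by 0.15 (edgeR adjusted p = 0.00341), and Cdkn1b, the cell cycle inhibitor p27, fell by 0.13 (edgeR adjusted p = 0.0204). The Cdkn1b call was lost with DESeq2 (adjusted p = 0.051) and without control replicate 1 (edgeR adjusted p = 0.0517), control replicate 3 (0.0618) or osteoclast-conditioned replicate 3 (0.106). Il7r, the interleukin-7 receptor chain, stood at 169.9 ± 4.88 and 176.6 ± 10.7 CPM, with a log2 fold change of 0.05 that missed the threshold (edgeR adjusted p = 0.261).

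Likeness to the Foxo1 profile was measured as the root mean square difference between log2 CPM values centred on each gene's mean over the 8 samples. The 3 nearest of 10728 genes were Slc3a2, the heavy chain of several amino acid transporters, at 0.025, Tbc1d20, a Rab GTPase-activating protein, at 0.025, and Sars, the cytosolic seryl-tRNA synthetase, at 0.027. The median over all genes was 0.224. Slc3a2 rose from 286.7 ± 5.42 to 387.9 ± 7.33 CPM, a log2 fold change of 0.44, Tbc1d20 rose by 0.42 and Sars by 0.36. Among the other factors Irf4 was nearest to Foxo1, at 0.100 and rank 364, followed by Bach2 at 0.121 and Pax5 at 0.146. No factor was called lower, so no profile of a fall was searched.

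Irf4 (ENSMUSG00000021356, chromosome 13, 30749226 to 30766976, + strand), the interferon regulatory factor that promotes light chain rearrangement in pre-B cells and later plasma cell fate, had the next largest change. Its control samples had 102.5, 100.9, 99.89 and 104.4 CPM, and its osteoclast-conditioned samples 121.8, 113.5, 118.0 and 122.6 CPM. The lowest osteoclast-conditioned sample, replicate 2, still lay above the highest control sample. The mean rose from 101.9 ± 1.97 to 119.0 ± 4.17 CPM, a log2 fold change of 0.22 (SE 0.033, 95% interval 0.16 to 0.29, edgeR adjusted p = 3.71e-06).

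Irf8, the partner that overlaps with Irf4 in pre-B cells, could not be compared. The gene (ENSMUSG00000041515, chromosome 8, 120736358 to 120756694, + strand) had 0 counts in all 8 samples, and 100% of its span lies within Gm20388, a listed gene on the same strand (119910841 to 124345722) with 26860 counts in all and no exon base shared. The same held for other genes placed in this way. Of 502 listed genes that lie inside another listed gene and share no exon base with it, 501 had 0 counts in every sample, against 5337 of the 17163 genes that overlap no listed gene. A count of 0 for Irf8 therefore gives no level for the gene in these cells. None of the other 9 factors overlaps a listed gene.

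Of the other interferon regulatory factors, Irf5 rose by 0.21 (SE 0.041, edgeR adjusted p = 0.000163), from 52.9 ± 2.32 to 61.3 ± 1.94 CPM. Its samples did not overlap between media. It shares 6.85% of its span and 14.1% of its exon bases with Tnpo3 on the opposite strand. The use of strand in counting is not given in the sources used here. Irf1, Irf2, Irf3, Irf7 and Irf9 missed the threshold, with log2 fold changes between -0.11 and 0.30. In all, 2 of the 7 tested members of the family were higher, Irf4 among them, and 0 lower, beside 15.7% and 14.8% of all genes.

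Bach2 (ENSMUSG00000040270, chromosome 4, 32238804 to 32586108, + strand), a repressor that holds back Prdm1 and the plasma cell programme, had 224.5, 233.6, 238.5 and 230.2 CPM in control replicates 1 to 4. The osteoclast-conditioned replicates had 260.4, 261.5, 261.6 and 257.1 CPM, a narrow range that lay wholly above the controls. The mean rose from 231.7 ± 5.91 to 260.2 ± 2.14 CPM, a log2 fold change of 0.17 (SE 0.027, 95% interval 0.11 to 0.22, edgeR adjusted p = 1.77e-05). Its relative Bach1 had a log2 fold change of 0.12 that was just past the threshold (edgeR adjusted p = 0.049), with overlapping samples of 39.5 to 41.5 CPM in control and 41.2 to 46.1 CPM in osteoclast-conditioned medium.

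Pax5 (ENSMUSG00000014030, chromosome 4, 44524757 to 44710487, - strand), the commitment factor, had the most counts of the factors. Control samples had 1180, 1153, 1259 and 1231 CPM, and osteoclast-conditioned samples 1311, 1320, 1319 and 1316 CPM. The controls were spread and the osteoclast-conditioned samples close together, and the groups did not overlap. The mean rose from 1206 ± 47.7 to 1317 ± 3.95 CPM, a log2 fold change of 0.13 (SE 0.027, 95% interval 0.07 to 0.18, edgeR adjusted p = 0.000536), or 1.09-fold.

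Ebf1 (ENSMUSG00000057098, chromosome 11, 44617317 to 45008091, + strand) works with PAX5 on many of the same genes. It had 675.5, 685.9, 698.5 and 679.6 CPM in control and 695.7, 718.4, 690.5 and 675.1 CPM in osteoclast-conditioned medium. The groups overlapped across most of their range, and the log2 fold change of 0.02 (SE 0.026, 95% interval -0.03 to 0.07) missed the threshold (edgeR adjusted p = 0.574). Ebf3 and Ebf4 were below the filter and Ebf2 had 0 counts in all samples.

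The ratio of Ebf1 to Pax5 counts within a sample does not depend on scaling between samples. Its log2 value was -0.81, -0.75, -0.85 and -0.86 in control and -0.91, -0.88, -0.93 and -0.96 in osteoclast-conditioned medium. Every osteoclast-conditioned sample lay below every control sample. The mean moved from -0.82 ± 0.05 to -0.92 ± 0.04, a difference of -0.11 (SE 0.031), with p = 0.0286 in a two-sided exact permutation test and 0.0429 after adjustment over the 3 ratios computed. That p is the smallest that 4 samples against 4 can give. The adjusted p was 0.0857 without control replicate 1 or 2 or without osteoclast-conditioned replicate 4, by the same exact test.

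**Figure D2:**
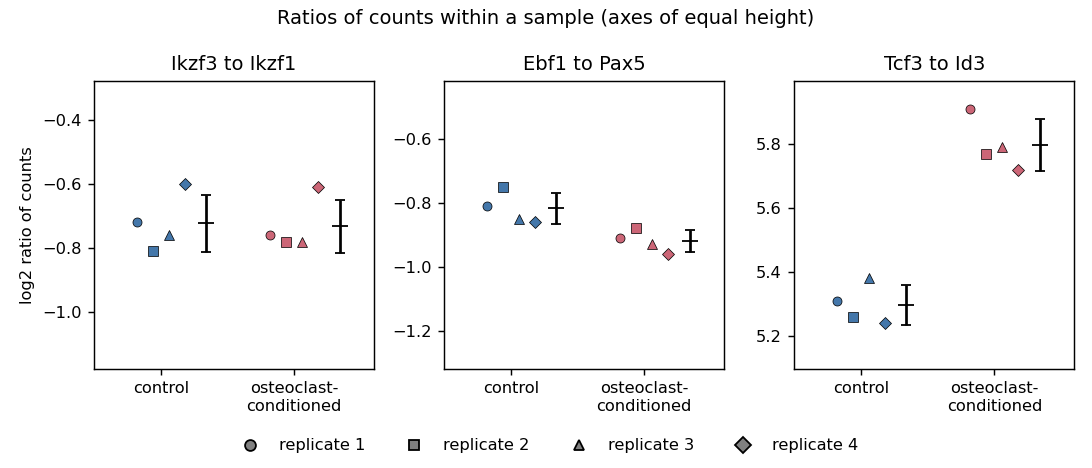
Log2 ratio of 2 genes' counts within each sample for Ikzf3 to Ikzf1, Ebf1 to Pax5 and Tcf3 to Id3, with samples as points (marker shape gives the replicate number) and mean ± SD as bars, on axes of equal height. The Ebf1 to Pax5 ratio is lower and the Tcf3 to Id3 ratio higher in all osteoclast-conditioned samples, while the Ikzf3 to Ikzf1 ratio overlaps and stands highest in replicate 4 of both media.

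Tcf3 (ENSMUSG00000020167, chromosome 10, 80409514 to 80433647, - strand), which encodes the E proteins E12 and E47, had 766.8, 739.3, 735.9 and 730.7 CPM in control and 760.6, 742.9, 768.4 and 760.9 CPM in osteoclast-conditioned medium. The samples overlapped, and the log2 fold change was 0.03 (SE 0.025, 95% interval -0.02 to 0.08, edgeR adjusted p = 0.42). Of the other E proteins, Tcf12 (HEB) rose by 0.17 (edgeR adjusted p = 4.01e-05), from 152.5 ± 1.82 to 171.2 ± 4.29 CPM, and Tcf4 (E2-2) had a log2 fold change of 0.03 that missed the threshold (edgeR adjusted p = 0.55).

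Of the 4 Id genes, whose products bind E proteins and keep them from DNA, Id2 and Id3 were tested and both were called lower. Id3 had 19.31, 19.33, 17.67 and 19.36 CPM in control and 12.62, 13.65, 13.91 and 14.41 CPM in osteoclast-conditioned medium, with no overlap. It fell by 0.48 on the log2 scale (SE 0.066, edgeR adjusted p = 1.72e-06), from a mean of 18.9 ± 0.8286 to 13.7 ± 0.756 CPM. Id2 fell by 0.56 (SE 0.186, edgeR adjusted p = 0.0223) at 29 to 69 counts a sample, with overlapping samples, and its call was lost without control replicate 1 or 3 or without osteoclast-conditioned replicate 2 or 3. Id1 was below the filter and Id4 had 0 counts in all samples.

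Within samples the log2 ratio of Tcf3 to Id3 counts was 5.31, 5.26, 5.38 and 5.24 in control and 5.91, 5.77, 5.79 and 5.72 in osteoclast-conditioned medium. The groups were far apart relative to their spread. The mean moved from 5.30 ± 0.06 to 5.80 ± 0.08, a difference of 0.50 (SE 0.052), with an exact permutation p of 0.0286 and 0.0429 after adjustment over the 3 ratios. Leaving out control replicate 1 or 2, or osteoclast-conditioned replicate 4, raised the adjusted exact p to 0.0857, though the groups still did not overlap. The adjusted p of a ratio depends on the p of the other ratios. With 3 samples against 4, the smallest p before adjustment is 0.0286. As plain ratios of counts, the geometric means were 39.3 and 55.6 Tcf3 counts per Id3 count. These are ratios of counts, not of molecules, since the genes differ in length.

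Ikzf1 (ENSMUSG00000018654, chromosome 11, 11685003 to 11772926, + strand), the zinc finger factor IKAROS, had 316.8, 320.2, 323.2 and 302.5 CPM in control and 338.8, 335.4, 337.5 and 317.6 CPM in osteoclast-conditioned medium. Replicate 4 was the lowest of each medium, and the osteoclast-conditioned replicate 4 lay within the control range. The log2 fold change was 0.07 (SE 0.028, 95% interval 0.02 to 0.13), with an edgeR adjusted p of 0.0457. This call lay at the edge of the threshold. It was lost without control replicate 1 (adjusted p = 0.0656), control replicate 4 (0.167), or osteoclast-conditioned replicate 1 (0.134), 2 (0.0961) or 3 (0.137), and with DESeq2 (0.0637), limma-voom (0.053), edgeR without robust estimation (0.0547), upper quartile scaling (0.0693) or total counts only (0.134).

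Ikzf3 (ENSMUSG00000018168, chromosome 11, 98464902 to 98546031, - strand), which encodes AIOLOS, had 192.8, 183.1, 191.4 and 199.1 CPM in control and 200.6, 196.0, 196.9 and 207.9 CPM in osteoclast-conditioned medium. Here replicate 4 was the highest of each medium, and the groups overlapped. The log2 fold change was 0.07 (SE 0.030, 95% interval 0.01 to 0.12, edgeR adjusted p = 0.104), and it passed the threshold without control replicate 4 (0.09, adjusted p = 0.0464). It was 0.04 without control replicate 2 (adjusted p = 0.275) and with total counts only (0.288), by edgeR. The log2 ratio of Ikzf3 to Ikzf1 within a sample averaged -0.72 ± 0.09 in control and -0.73 ± 0.08 in osteoclast-conditioned medium, a difference of -0.01 (SE 0.059, exact permutation p = 0.8).

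Of the rest of the IKAROS family, Ikzf4 (EOS) had a log2 fold change of 0.27 that missed the threshold (edgeR adjusted p = 0.0988), and Ikzf2 and Ikzf5 had 0 counts in all samples. Ikzf5 lies wholly within Fgfr2 on the same strand. Of 8 genes that IKAROS and AIOLOS are known to repress in pre-B cells, 4 were higher and 2 lower, with a median log2 fold change of 0.14. Cdk6, a cell cycle kinase, rose by 0.26 (edgeR adjusted p = 2.41e-06), from 389.4 ± 12.2 to 466.8 ± 25.6 CPM, and Ccnd2, cyclin D2, rose by 0.13 (edgeR adjusted p = 0.000209). Ccnd3, cyclin D3, fell by 0.21 (edgeR adjusted p = 7.88e-05), from 1652 ± 96.3 to 1427 ± 45.6 CPM. Myc fell by 0.11 (edgeR adjusted p = 0.00996), with overlapping samples, and its call was lost without control replicate 1 (0.0537) or 4 (0.06) or osteoclast-conditioned replicate 2 (0.0585) or 3 (0.0501).

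Spib (ENSMUSG00000008193, chromosome 7, 44525993 to 44532071, - strand) had 40.51, 42.81, 40.01 and 39.28 CPM in control and 41.15, 41.49, 44.24 and 40.08 CPM in osteoclast-conditioned medium. The groups overlapped, with a log2 fold change of 0.04 (SE 0.046, 95% interval -0.05 to 0.13, edgeR adjusted p = 0.585). Spi1, which encodes PU.1, had a log2 fold change of 0.01 (edgeR adjusted p = 0.872) at 56.5 ± 0.944 and 56.9 ± 1.15 CPM. Spic had 0 counts in all samples. Of 11 ETS family genes tested, Elf4 rose by 0.23 (edgeR adjusted p = 1.08e-07), Etv6 by 0.15 (0.00217) and Erg by 0.12 (0.00784), and 0 were lower. Among all genes, 15.7% were called higher and 14.8% lower.

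**Figure D3:**
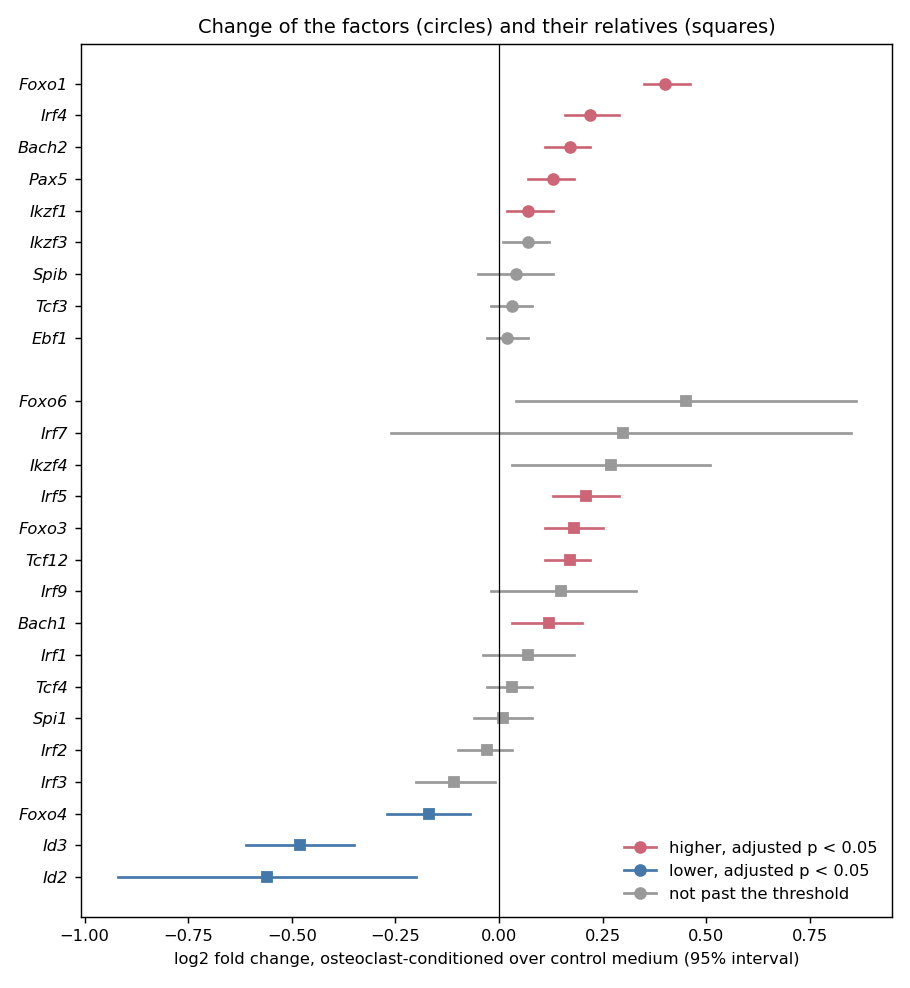
Log2 fold change of the 9 tested factors (circles) and 16 tested relatives (squares), osteoclast-conditioned over control medium, with 95% intervals from 8 samples, coloured by the edgeR call. Foxo1 stands highest among the factors at 0.40, the 5 called factors lie above 0, and Id2, Id3 and Foxo4 are the called relatives below 0.

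Levels of different genes were compared as CPM per kilobase of merged exon. Tcf3 stood highest, at 184.0 ± 3.99 in control and 187.7 ± 2.68 in osteoclast-conditioned medium, followed by Pax5 at 136.2 ± 5.39 and 148.7 ± 0.446. Ebf1 had 70.2 and 71.2, and Ikzf1 had 54.7 and 57.5. These 4 lay at or above the 92.3 percentile of all tested genes. Each was above the next in 8 of 8 samples with no overlap.

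The next 4 factors lay close together. Bach2 went from 23.3 to 26.2, Irf4 from 20.8 to 24.3, Ikzf3 from 21.9 to 22.9 and Foxo1 from 17.3 to 22.9 CPM per kilobase. Bach2 exceeded Irf4 in all 4 samples of each medium with no overlap within a medium. With this length, Irf4 and Ikzf3 changed places between media. Within a sample, Irf4 lay below Ikzf3 in all 4 controls and above it in all 4 osteoclast-conditioned samples, although their ranges overlapped within each medium. Ikzf3 exceeded Foxo1 in all 4 controls with no overlap, but in only 1 of the 4 osteoclast-conditioned samples, where the ranges overlapped. Spib was lowest, at 14.2 and 14.6, yet still at the 66.3 percentile of tested genes. The order depends on the length used. With the longest transcript, Ikzf3 moved up to the fifth place at a mean of 42.5 over the 8 samples, against 27.7 for Bach2, 23.2 for Irf4 and 20.1 for Foxo1, so the exchange of places with Irf4 rests on the merged exon length. With the whole span of each gene, a length tried once the data had been seen, 5 of the 8 neighbouring pairs kept their order.

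**Figure D4:**
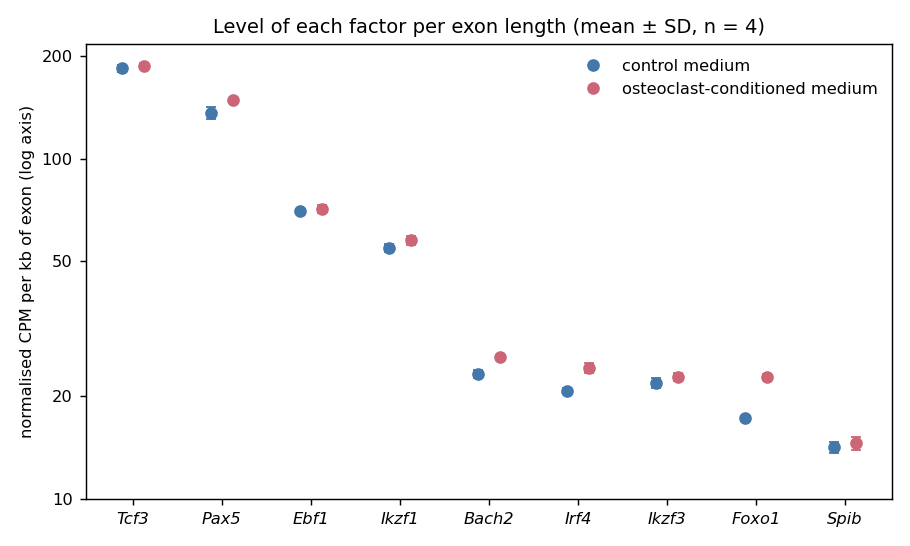
Mean normalised CPM per kilobase of merged exon (log axis) for each factor in control and osteoclast-conditioned medium, with SD over 4 samples as bars. Tcf3, Pax5, Ebf1 and Ikzf1 stand apart in that order, Bach2, Irf4, Ikzf3 and Foxo1 lie close together, and Spib is lowest.

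Genes known to be activated by PAX5, EBF1 and E2A moved in both directions. Of 17 tested among 20 listed, 8 were higher and 4 lower, with a median log2 fold change of 0.10. Among all genes, 15.7% were called higher and 14.8% lower. Blnk, the adaptor of pre-B receptor signalling, rose by 0.29 (edgeR adjusted p = 8.85e-09), from 144.2 ± 3.47 to 175.9 ± 4.41 CPM. Cd79a, a signalling chain of the receptor, rose by 0.15 (3.77e-05), and Lef1, a Wnt pathway factor, by 0.17 (2.01e-05). Vpreb2, a surrogate light chain gene, rose by 0.18 (2.71e-05) and its near-identical copy Vpreb1 by 0.15 (0.000696), which are uncertain because reads could be split between them.

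The genes named here that fell encode surface proteins. Cd22, an inhibitory coreceptor, fell by 0.44 (SE 0.032, edgeR adjusted p = 6.5e-12), with 139.9, 134.3, 130.8 and 138.9 CPM in control and 99.55, 99.21, 99.97 and 103.2 CPM in osteoclast-conditioned medium. The groups were far apart, with no overlap. Cd72, another inhibitory coreceptor, fell by 0.25 (2.21e-05), and it shares 19.6% of its span with Tesk1 on the opposite strand. Of the Cd72 exon bases, 41.6% lie in exons of Tesk1. Cd24a, a small surface glycoprotein, fell by 0.17 (1.24e-05), from 392.7 ± 11.1 to 348.1 ± 8.75 CPM. Igll1, the remaining surrogate light chain gene, had a log2 fold change of 0.00 (edgeR adjusted p = 0.918).

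Among genes known to be repressed by PAX5, 8 of 12 were tested, with 3 higher and 0 lower and a median log2 fold change of 0.12. Ly6a, which encodes Sca-1, rose by 1.03 (edgeR adjusted p = 0.000108) at a low level, from 1.29 ± 0.387 to 2.61 ± 0.149 CPM. Notch1 rose by 0.16 (0.000744) and Cd47 by 0.10 (0.0305). The Cd47 call was lost with total counts only (0.0787) and without control replicate 1 (0.084), 3 (0.0667) or 4 (0.0937) or osteoclast-conditioned replicate 3 (0.119). Flt3, Csf1r, Prdm1 and Fcer1g, markers of other fates, were below the filter in both media. Not all uncalled genes of the list were low. Xbp1 stood at 197.7 ± 12.1 CPM in control and 204.5 ± 5.07 CPM in osteoclast-conditioned medium (edgeR adjusted p = 0.332). Emb stood at 66.05 ± 2.53 and 64.8 ± 3.46 CPM (edgeR adjusted p = 0.621).

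Of 34 other B-lineage transcription factors tested, 13 were higher and 4 lower, with a median log2 fold change of 0.05. Among all genes, 15.7% were called higher and 14.8% lower. Foxp1, a forkhead factor of early B cells, rose by 0.39 (SE 0.027, edgeR adjusted p = 1.93e-12), from 383.9 ± 7.51 to 502.7 ± 13.2 CPM. It shares 44.4% of its span, but 2.18% of its exon bases, with Gm20696 on the same strand. Gm20696 had 139 counts in all against 63806 for Foxp1. Rel, an NF-kappa-B subunit, rose by 0.33 (8.92e-07). Pou2f1 (OCT-1) rose by 0.28 (0.0406). Its call was lost without control replicate 2 or 4 or any 1 of the osteoclast-conditioned samples (0.0592 to 0.0986). It was also lost with upper quartile scaling (0.0545) or total counts only (0.0508). Pou2f1 shares 8.82% of its span and 18.1% of its exon bases with Cd247 on the opposite strand. Gfi1b, a repressor, fell by 0.28 (1.41e-07), from 114.0 ± 4.38 to 93.6 ± 2.47 CPM, and the remaining falls were Id2, Id3 and Myc.

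Markers of the stages of B-cell development were compared by level. In control medium the surrogate light chain genes Vpreb2, Vpreb1 and Igll1 stood at 475.4, 288.2 and 213.3 CPM per kilobase of exon, Cd79a at 353.5, Cd93 at 115.2 and Il7r at 36.4. The surrogate light chain genes and Il7r belong to pro-B and large pre-B cells, whereas Cd79a is expressed throughout the B lineage. Kit, a marker of earlier pro-B cells, had 0 to 1 counts a sample, Flt3 had 1 to 6, and Dntt, the terminal transferase, stood at 2.04 CPM per kilobase. The small pre-B list was mixed, with Cd2 at 59.2, Cd22 at 27.0, Blnk at 24.1, Ikzf3 at 21.9, Irf4 at 20.8 and Cd72 at 20.2 CPM per kilobase, but Il2ra at 0.706. In the mature list Tnfrsf13c, the BAFF receptor, stood highest, at 19.2, while Ms4a1 (CD20) had 0 to 2 counts a sample. Rag1 and Rag2, the recombinase genes, had 0 counts in all samples. Both lie wholly within B230118H07Rik, and 888 of the 889 genes placed wholly within another listed gene had 0 counts, so these give no level.

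Between media, calls went both ways in 4 of the 5 stage lists, beside 15.7% of all genes called higher and 14.8% called lower. Of 10 pro-B markers tested, 5 were higher (Vpreb1, Vpreb2, Erg, Bst1 and Cd79a) and 1 was lower, with a median log2 fold change of 0.13. Bst1 shares 11.0% of its span and 2.95% of its exon bases with Fbxl5 on the opposite strand. Of 9 small pre-B markers tested, 3 were higher (Blnk, Irf4 and Cd2) and 2 lower (Cd22 and Cd72), with a median of 0.07. Of 11 mature markers tested, 3 were higher and 1 lower, all at low level. Cd74, the invariant chain, rose by 0.64 (edgeR adjusted p = 1.51e-07), from 9.56 ± 0.723 to 14.9 ± 0.86 CPM, while H2-Ab1, a class II chain, fell by 0.26 (0.0252).

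Ciita, the class II transactivator, and Cxcr5, a chemokine receptor, had 7 to 30 counts a sample and log2 fold changes of 0.77 (edgeR adjusted p = 0.031) and 0.85 (0.0119). The Ciita call was lost without control replicate 1, 3 or 4 or osteoclast-conditioned replicate 3 or 4 (0.0501 to 0.0761) and without a filter on low counts (0.0506), DESeq2 gave it no adjusted p, and the Cxcr5 call without control replicate 1 (0.0604). The H2-Ab1 call was lost without control replicate 2 (0.136) or osteoclast-conditioned replicate 1 (0.125) and with DESeq2 (0.0764). Ciita shares 53.5% of its span, but 3.45% of its exon bases, with Dexi on the opposite strand.

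Among 6 germinal centre genes, Mef2b rose by 0.26 (edgeR adjusted p = 0.00225) and 0 were lower, with a median of -0.20. It shares 27.4% of its span and 4.42% of its exon bases with Borcs8 on the same strand, which had 85 counts in all. Among 6 plasma cell genes tested, Irf4 was higher and 2 were lower. Sdc1, the surface proteoglycan CD138, fell by 0.39 (edgeR adjusted p = 2.94e-06), from 24.95 ± 0.915 to 19.0 ± 0.4 CPM. Fkbp11 fell by 0.41 (0.0393), a call that was lost with DESeq2 (0.0943), with limma-voom (0.0679) and without control replicate 2, osteoclast-conditioned replicate 2, 3 or 4 (0.0592 to 0.111) or control replicate 4 (-0.26, adjusted p = 0.235). Prdm1, the plasma cell regulator that BACH2 represses, had 3 to 14 counts a sample, and Mzb1 had 0 counts and lies 99.95% within another listed gene. Xbp1, also on the plasma cell list, stood at 197.7 ± 12.1 and 204.5 ± 5.07 CPM and missed the threshold (edgeR adjusted p = 0.332).

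**Figure D5:**
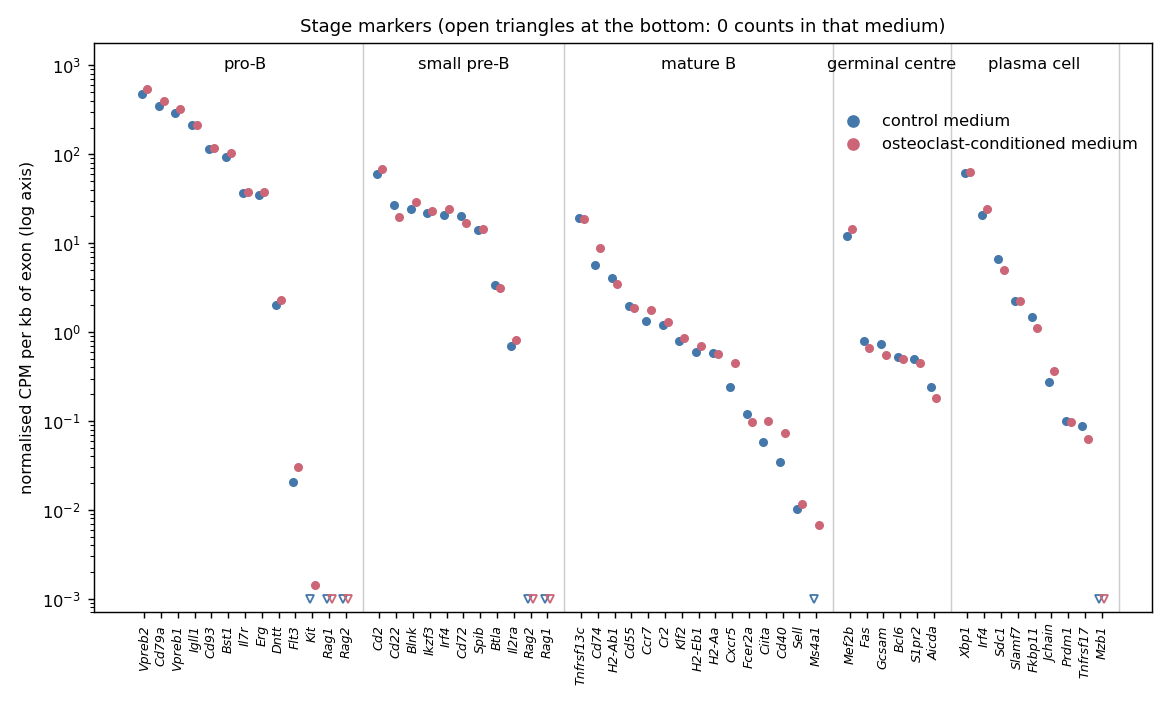
Mean normalised CPM per kilobase of exon (log axis) for the stage markers reported, in control and osteoclast-conditioned medium, grouped by list and sorted by control level. Open triangles mark 0 counts in that medium. Surrogate light chain genes and Cd79a are highest, near 213 to 538, while Kit, Flt3 and Ms4a1 are near or at 0.

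Markers of other cells were listed in 4 groups. Of 10 T-cell markers, 2 were tested and 0 called, with a summed level of 36.8 to 39.9 CPM in control and 37.9 to 41.1 CPM in osteoclast-conditioned medium, mostly Tcf7 (36.25 ± 1.81 and 37.7 ± 1.21 CPM), and Cd3g, Cd8a and Bcl11b were at 0. Of 10 myeloid markers, Lyz2 alone was tested, with sums of 4.06 to 5.39 and 5.44 to 7.07 CPM and Itgam, Elane and Cebpa at 0. Itgam lies 99.9% within Gm49368 on the same strand and shares 68.7% of its exon bases with it. Gm49368 also had 0 counts, so the 0 of Itgam gives no level. Lyz2 rose by 0.40 (edgeR adjusted p = 0.0119), a call lost without osteoclast-conditioned replicate 2 (0.0639). Of 11 osteoclast markers, 3 were tested, with sums of 128.1 to 134.8 and 139.2 to 145.1 CPM. Nfatc1, which lymphocytes also express, rose by 0.15 (edgeR adjusted p = 0.000806), from 95.6 ± 2.69 to 105.8 ± 1.603 CPM. Acp5, the acid phosphatase of osteoclasts, stood at 22.9 ± 1.51 and 24.4 ± 1.42 CPM and missed the threshold (log2 fold change 0.08, edgeR adjusted p = 0.332). Itgb3 fell by 0.25 (0.0185), and the fusion genes Dcstamp and Ocstamp were at 0 in all samples. The Itgb3 call was lost without control replicate 1 (0.0744) or 3 (0.0879). Of 10 erythroid and stromal markers 0 were tested, with sums of 0.339 to 0.592 and 0.467 to 0.719 CPM, and Hba-a1, Hba-a2, Hbb-bs, Col1a2 and Cxcl12 were at 0. The summed myeloid level was higher in osteoclast-conditioned medium with no overlap, while without Lyz2 the sums were 0.169 to 0.533 and 0.180 to 0.458 CPM and overlapped. The part of these markers in the results for the factors was not tested. The summed osteoclast level was also higher with no overlap, but without Nfatc1, left out after its values were seen, the sums were 35.8 to 37.2 CPM in control and 34.4 to 37.9 CPM in osteoclast-conditioned medium and overlapped.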

How the data were processed

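RNA sequencing counts from 8 samples of 1 mouse line were used as deposited by the authors: whole-number counts per Ensembl gene, not normalised, in 1 table. Per the submitters' processing notes, reads were aligned to mm10 with STAR 2.7.5a and counted with featureCounts 2.0.1. Per the labels' protocols, RNA was taken with RNeasy Plus Mini and libraries made with SureSelect HS2. The annotation, use of strand and handling of molecular barcodes are not given in the sources used here.

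Symbols, positions and exon lengths came from GENCODE M21 (21817 of 21859 IDs matched), and promoters from the RefSeq table. Counts were filtered with filterByExpr, scaled by TMM and tested with edgeR 4.0.16 (glmQLFit, robust; glmQLFTest) in R 4.3.3 over both media, without a block, with Benjamini-Hochberg adjustment over 10729 genes at 0.05. The common biological coefficient of variation was 0.0304. Standard errors are the log2 fold change over the square root of F. Ratios were tested by two-sided exact permutation. Samples of 1 medium differed by more than sampling noise (chi-square per degree of freedom 1.38 to 5.27). Scripts were tested on simulated data. Python 3.11.15, pandas 2.3.3 and matplotlib 3.10.9 served for tables and figures.

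The factors, the gene lists and the tests were chosen with earlier results of these data known. The text names all 10 factors, up to 3 called genes per list and direction by size of change, list genes at 0 counts in all samples, and the 3 genes nearest in profile to the factor that rose most. A few list genes that enter the counts are not reported here by name. Further genes of a list were named after their values were seen. Alternatives were 3 other scalings, 2 other filters, DESeq2 1.42.0, limma-voom (limma 3.58.1), no robust estimation, a replicate block, stricter thresholds, leaving out each sample, and other gene lengths.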

Additional observations from a re-analysis of the deposited data

Results flagged for a closer look

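In 56 results checked over 112 groups of 4 samples, 10 groups had a sample whose gap to its nearest neighbour took a large share of the group's range, where chance gives about 5.6. The flagged factor was Ikzf1, whose osteoclast-conditioned replicate 4 had 317.6 CPM against 335.4 to 338.8 in the others (share 0.840). In the same library the log2 ratio of Ikzf3 to Ikzf1 was -0.61 against -0.78 to -0.76 (0.871). Control replicate 3 had the lowest Id3, at 17.67 CPM against 19.31 to 19.36 (0.971). Control replicate 2 was highest for Cd47, at 234.8 against 207.5 to 211.8 CPM (0.841), for Etv6, at 91.61 against 84.04 to 84.7 CPM (0.912), and for Irs2, at 16.15 against 13.92 to 14.22 CPM (0.864). Control replicate 1 was lowest for Cdk6, at 371.3 against 393.3 to 397.6 CPM (0.836), and control replicate 4 highest for Notch1, at 93.73 against 88.3 to 89.02 CPM (0.868). Osteoclast-conditioned replicate 3 was highest for Cd47, at 239.2 against 227.8 to 229.4 CPM (0.859), and for Cd74, at 16.16 against 14.37 to 14.59 CPM (0.879).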

How the results depend on the processing

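Across 53 named genes and 19 alternatives, 1002 values were obtained, of which 889 kept their direction and side of the threshold, 111 lost their call, 1 gained one and 1, Ebf1 with total counts only (0.00), changed direction. With that scaling 40.8% of 3393 calls were higher, against 51.6% of 3273 with TMM, the median of all genes shifted by -0.02 and that of the factors was 0.05 against 0.07. Against 1.2-fold, 227 genes (161 higher, 66 lower) were called, among them 6 genes of the lists, of which 1 (Foxo1, higher) was a factor. At an adjusted p under 0.01 there were 2147 calls, 948 of them lower. With the longest transcript 7 of 8 neighbouring pairs of factors kept their order, and with the gene span 5.

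Leaving out 1 sample at a time gave 2635 to 3578 calls (1395 to 1846 higher, 1220 to 1732 lower), 4 to 5 called factors, 4 to 5 of them higher, 50 to 58 called list genes, 7 to 8 pairs in order and a factor median of 0.07 to 0.10. The ratio differences ranged from -0.12 to -0.09 for Ebf1 to Pax5, 0.46 to 0.53 for Tcf3 to Id3 and -0.05 to 0.03 for Ikzf3 to Ikzf1, whose sign turned when control replicate 4 was left out (0.03), or replicate 2 (0.01) or 3 (0.01) of the osteoclast-conditioned samples. The Ebf1 to Pax5 and Tcf3 to Id3 ratios each lost their call (adjusted p = 0.0857, exact permutation) when replicate 1 or 2 of the controls, or replicate 4 of the osteoclast-conditioned samples, was left out. The media still did not overlap in either ratio in these runs, and the adjusted p of 1 ratio depends on the p of the others. The counts of named genes leave out Ciita with DESeq2, which gave it no adjusted p, and Ciita, Cxcr5, Id2 and Ly6a with the filter at a mean of 50 counts, which they did not pass.

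Same-numbered samples of the 2 media deviated together only weakly (mean correlation 0.037, from -0.051 to 0.143, against -0.013 for different numbers), and 3 of 8 samples correlated best with their own number, so the numbers were not taken as pairs. The replicate block called 3446 genes (1759 higher) and changed the call of no factor. In the exact sign-flip test over pairs, whose smallest p is 0.125, the Ebf1 to Pax5 difference of -0.11 and the Tcf3 to Id3 difference of 0.50 had an adjusted p of 0.188. The cause of these changes was not tested. Genes with few counts, such as Ciita and Cxcr5, are limited by depth.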
